A study of Mus musculus with 18 samples.

Results

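Cytosolic ribosomal proteins are the protein subunits of the ribosomes that translate nuclear-encoded mRNA. The 84 genes described here were taken from the 23234 gene symbols of the RNA table by symbol: 80 matched the Rpl or Rps naming pattern, and Rpsa, Rplp0, Rplp1 and Rplp2 were added by name. They comprise 43 large-subunit genes, 31 small-subunit genes, 3 genes of the acidic stalk and 7 paralogues, which are duplicate genes such as Rps27l and Rpl22l1. The naming used no measured value.

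The study removed G9a (gene Ehmt2), a histone methyltransferase that places methyl groups on lysine 9 of histone H3, from mouse T cells. RNA was sequenced from C57BL/6 T cells recovered from lymph nodes and spleen once they had expanded for 4 weeks where lymphocytes were scarce (a lymphopenic environment). G9a knockout cells positive for both CD4 and CD8 (KO DP, n = 4), G9a knockout cells positive for CD8 only (KO SP, n = 2) and G9a wild-type CD8 single-positive cells (WT SP, n = 4) were profiled. H3K9me3, a mark of silent chromatin, was mapped in CD8 T cells cultured with antibodies to CD3 and CD28, with 2 peak lists for Ehmt2+/+ and 2 for Ehmt2-/- cells. The labels do not say how the gene was deleted, which cells the hosts still had, whether animals were pooled, or whether each library stands for its own animal. The p-values therefore reflect only how much these libraries vary, which may be technical. The titles carry the numbers 34 to 37 or 738 to 741. KO DP replicates 1 and 2 and WT SP replicates 1 and 2 fall in the first range, the other libraries in the second, and KO DP replicates 3 and 4 share their title numbers with the KO SP libraries.

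Values are FPKM, that is fragments scaled to transcript length and to the mapped fragments of the library, so levels can be set beside each other between genes. FPKM keep no read count, so the depth is unknown. The columns summed to between 441903 and 504013, except for KO DP replicates 3 and 4 with 292872 and 183632, so differences are given as deposited and again after scaling each library by the median ratio of its genes to the average library. Over all tested genes the median KO DP to WT SP difference was -0.38 on the log2 scale as deposited and -0.01 after scaling. Cd4 was 49.4 to 178 FPKM in KO DP and 0.144 to 0.495 FPKM in all SP libraries, and Cd8b1 was at least 248 FPKM in every library, as labelled. Ehmt2 itself was 7.28 to 23.6 FPKM in the knockout libraries and 18.1 to 42.6 FPKM in WT SP; a value over the whole gene cannot show the loss of the targeted exons, so it does not check the genotype labels. The labels give no sex, but sex-linked genes split by genotype: Xist, transcribed from the inactive X chromosome, was 1.88 to 4.58 FPKM in all 6 knockout libraries and 0.0134 to 0.0338 FPKM in WT SP. Y-linked Ddx3y was 0.0626 to 0.543 FPKM in the knockout libraries and 21.5 to 27.9 FPKM in WT SP. In both comparisons of knockout with wild type, genotype and sex therefore cannot be told apart; KO DP and KO SP do not differ in this way. The summed FPKM of 8 erythroid markers was 468 to 1214 in the 4 libraries titled 34 to 37 and 1.41 to 57.4 in the 6 titled 738 to 741, and that of 10 myeloid markers was 65.8 to 198 and 14.3 to 35.7. Hbb-b1 was listed at 0 in all 6 libraries of the second range. Fewer cells of a type and less RNA per cell cannot be told apart in such bulk samples.

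As background, each ribosome holds a single copy of nearly every ribosomal protein, and their mRNAs rank among the most abundant in dividing cells. Activated T cells raise ribosome production as they grow, with Myc driving transcription of ribosome genes and mTOR signalling driving translation of the mRNAs. These mRNAs typically begin with a C followed by a run of pyrimidines, the terminal oligopyrimidine (TOP) tract, through which Larp1 represses their translation when mTOR is inactive.

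The start regions of members that the results turn on are shown to let the tract be seen, with 30 bases before and 20 bases from the start site onward, on the gene's strand. They are RefSeq sequences of GRCm38.p6. Capitals mark the tract where one was found, defined as a C followed by at least 4 pyrimidines (C or T) whose first base lies within 10 bases of the start. Rpl12, Rpl14, Rpl13a and Rps6 are canonical members with a tract, Rpl9 and Rplp0 are canonical members whose window holds none, and Rpl22l1, Rps27l and Rpl7l1 are paralogues.
Rpl12 (chr2:32961682-32961731, plus strand): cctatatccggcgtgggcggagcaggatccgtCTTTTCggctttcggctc
Rpl14 (chr9:120571487-120571536, plus strand): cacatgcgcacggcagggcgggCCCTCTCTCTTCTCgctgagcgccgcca
Rpl13a (chr7:45128726-45128775, minus strand): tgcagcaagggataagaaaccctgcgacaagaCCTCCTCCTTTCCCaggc
Rps6 (chr4:86857348-86857397, minus strand): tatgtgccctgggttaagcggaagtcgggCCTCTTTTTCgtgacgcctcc
Rpl9 (chr5:65391412-65391461, minus strand): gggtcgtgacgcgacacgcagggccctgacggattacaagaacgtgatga
Rplp0 (chr5:115559437-115559486, plus strand): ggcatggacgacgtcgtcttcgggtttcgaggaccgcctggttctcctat
Rpl22l1 (chr3:28805478-28805527, plus strand): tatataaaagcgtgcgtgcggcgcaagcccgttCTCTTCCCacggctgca
Rps27l (chr9:66946056-66946105, plus strand): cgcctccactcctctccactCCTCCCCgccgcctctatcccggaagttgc
Rpl7l1 (chr17:46782637-46782686, minus strand): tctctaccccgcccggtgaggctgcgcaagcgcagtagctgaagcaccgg
Of the 84 members, 62 had a promoter in the RefSeq table. A tract was found at 1 or more starts of 39 of them (62.9%), against 9007 of the 27025 genes in that table (33.3%) and 30 of 69 mitochondrial ribosomal proteins (43.5%), whose mRNAs serve a separate ribosome. Counted over windows of 300 bases, 41 of 74 member windows (55.4%) and 29.7% of all windows held one. Only the gene's strand was searched, and a match is a description of these letters, not a mapped start or a regulated site.

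Ribosomal protein mRNAs were abundant in every library. Their median mean level was 120.7 FPKM, against 11.5 FPKM over all tested genes, and 51 of the 84 averaged at least 100 FPKM, as did 726 genes in the whole table. High means were those of Rpl32 (614.6 FPKM), Rps18 (581.9 FPKM), Rpl41 (505.8 FPKM) and Rps14 (452.0 FPKM). At the low end were Rpl39l (0.640 FPKM), Rps27 (0.334 FPKM), Rpl3l (0.0438 FPKM), Rpl10l (0.0231 FPKM) and Rpl26 (0 FPKM). Rpl3l is a striated-muscle paralogue, and Rpl10l and Rpl39l are testis paralogues. Rpl26 was listed at 0 in all 10 libraries and Rps27 in 9, with 3.34 FPKM in KO DP replicate 4. Both encode obligatory subunits, so these zeros can be failed estimates. Ribosomal protein genes have many processed copies in the genome, and how the authors' counting shared reads among them is not given in the sources used here, so single-gene levels are uncertain. The filter of a mean of at least 0.5 FPKM removed Rps27, Rpl3l, Rpl10l and Rpl26 and left 80 members among 11162 tested genes.

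The members together took a smaller share of the transcriptome in KO DP than in most WT SP libraries. KO DP replicates 1 to 4 gave 2.60%, 3.19%, 2.28% and 2.27% of all FPKM to them. It was 2.61% and 3.16% in the KO SP libraries. It was 6.66%, 4.68%, 2.97% and 3.08% in WT SP replicates 1 to 4. The KO DP mean of 2.58% ± 0.430 (SD, n = 4) was 0.594 times the WT SP mean of 4.35% ± 1.73 (SD, n = 4), but KO DP replicate 2 lay above WT SP replicates 3 and 4, so the groups overlapped. KO SP had a mean of 2.88% ± 0.389 (SD, n = 2). The WT SP spread followed the title ranges: 5.67% in the range 34 to 37 and 3.03% in the range 738 to 741. KO DP lay below WT SP in both, at 2.89% and 2.27%. Mitochondrial ribosomal proteins, 76 genes, took 0.692% ± 0.0203 in KO DP, 0.732% ± 0.0474 in KO SP and 0.687% ± 0.00803 in WT SP, so their share did not follow that of the cytosolic proteins.

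**Figure D1:**
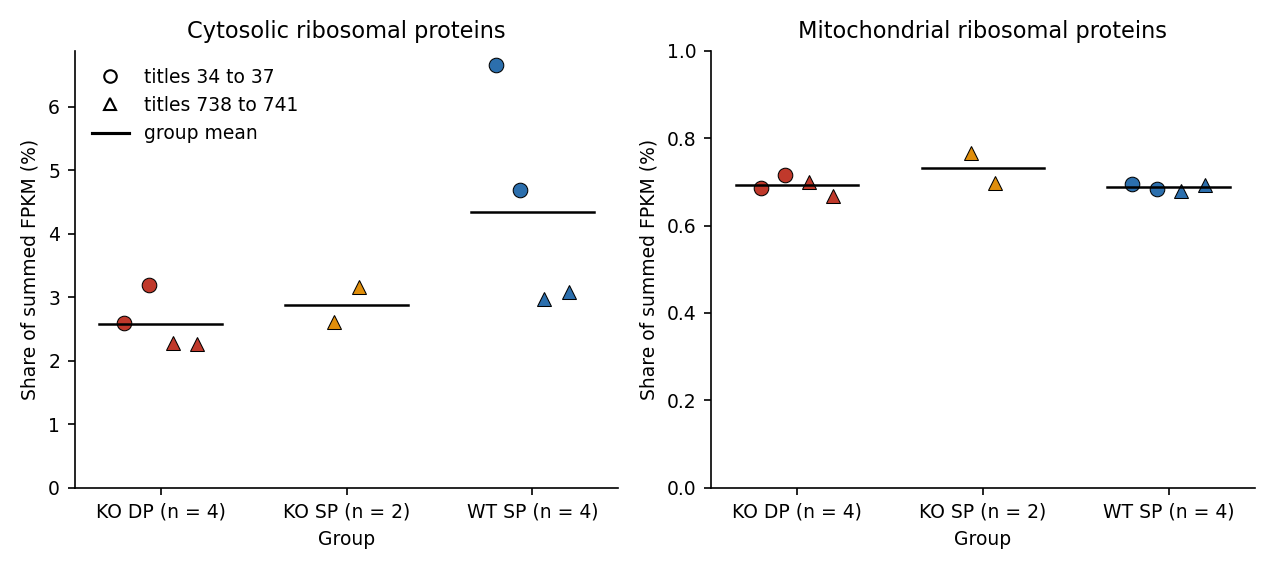
Share of summed FPKM (%, vertical axis) taken by cytosolic ribosomal protein genes (left) and mitochondrial ribosomal protein genes (right) in each library, by group; circles are titles 34 to 37, triangles titles 738 to 741, and bars the group means. The cytosolic share ran from 2.27% to 3.19% in KO DP and from 2.97% to 6.66% in WT SP, where both circles lie highest, and the vertical scales of the panels differ.

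The comparison of KO DP with WT SP asks how knockout cells that carry CD4 on top of CD8 differ from wild-type CD8 cells. Ribosomal protein mRNAs lay lower in KO DP almost throughout: 78 of the 80 tested members had a negative difference on either scale. As deposited, the median member difference was -1.13 on the log2(FPKM + 1) scale, beside -0.38 for all tested genes, and after scaling it was -0.70 beside -0.01. By limma with Benjamini-Hochberg adjustment over all tested genes, 11 members fell as deposited (percent called lower over all genes, 5.03%) and 19 after scaling (7.89%). None rose on either scale (percent called higher over all genes, 2.86% as deposited and 9.7% after scaling). At an unadjusted limma p under 0.05 no member was higher either. At that threshold 3050 of the 11162 tested genes differed in either direction as deposited and 3542 after scaling. The members that fell on both scales numbered 9, and 21 fell on at least 1 scale. Every KO DP library lay below every WT SP library for 23 members as deposited (13.1% of all genes) and 22 after scaling (9.04%). Both KO SP libraries lay above every KO DP library for 30 members as deposited (35.5% of all genes) and 20 after scaling (19.7%). Separation from the KO SP pair is therefore common among all genes, which limits each statement below that KO DP lay under KO SP.

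These counts changed when single libraries were left out. As deposited, 0 members passed without KO DP replicate 3 or without WT SP replicate 1, 3 or 4, 1 passed without either KO SP library, which serve only to estimate the spread, 3 without WT SP replicate 2, 5 without KO DP replicate 4 and 22 without KO DP replicate 2. After scaling between 6 members (without KO DP replicate 4) and 23 (without WT SP replicate 3) passed, with 8 without KO DP replicate 3 and 9 without KO DP replicate 1 or replicate 2. In the fits with 0 members called, 30 to 67 were lower at an unadjusted limma p under 0.05. In those fits 2099 to 2417 of the 11162 tested genes differed in either direction at that threshold. Over all genes the fits without single libraries called 1.53% to 8.17% lower as deposited and 4.4% to 10.6% after scaling. The median difference stayed negative in each of these fits, from -1.43 to -0.78 as deposited and from -0.91 to -0.42 after scaling. KO DP replicates 1 and 2, whose summed FPKM were like those of the other groups, were also set alone against WT SP libraries of both title ranges. On either scale 2 members fell, Rpl5 and Rps4x, and the median was -0.49 as deposited and -0.56 after scaling. Over all genes 2.53% and 3.22% were called lower in these fits, so 2 of 80 members is no more than the background. Against only the WT SP libraries of their own range, titles 34 to 37, the medians were -0.997 as deposited and -1.08 after scaling. With a block for the replicate number that KO DP and WT SP share, 26 members fell as deposited (6.79% of all genes) and 13 after scaling (8.56%). Of the 11 members called as deposited 8 were also called with the block, and of the 19 called after scaling 8 were called in the scaled fit with the block, so 11 of those 19 calls did not hold under it.

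Among the large-subunit proteins, 6 of 42 tested members fell as deposited and 12 after scaling (5.03% and 7.89% of all genes). The class medians were -1.08 and -0.65, beside -0.38 and -0.01 for all genes. Rpl12, which sits at the base of the stalk where elongation factors bind, showed the smallest p on both scales. Rpl12 was 62.2, 84.1, 40.7 and 28.5 FPKM in KO DP replicates 1 to 4, 87.1 and 102 FPKM in the KO SP pair, and 220, 144, 112 and 129 FPKM in WT SP replicates 1 to 4. Every KO DP value lay below every value of the other groups. The Rpl12 difference from WT SP was -1.54 (SE 0.36, 0.344-fold, limma adjusted p = 0.0245) as deposited and -1.10 (SE 0.21, adjusted p = 0.00843) after scaling, and over 40 fits it passed in 31, with adjusted p from 0.00338 to 0.194.

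Rpl9, another large-subunit protein, followed the same order. Rpl9 was 161, 189, 87.7 and 70.7 FPKM in KO DP, 205 and 270 FPKM in the KO SP pair, and 508, 349, 266 and 256 FPKM in WT SP. Again no KO DP library reached a WT SP library. Rpl9 fell by 1.49 (SE 0.37, 0.356-fold, limma adjusted p = 0.0323) as deposited and by 1.05 (SE 0.23, adjusted p = 0.0154) after scaling.

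Rpl14, also of the large subunit, varied little in KO DP once scaled. Scaled Rpl14 was 80.8, 87.2, 79.1 and 84.2 in KO DP, 106 and 121 in the KO SP pair, and 231, 167, 113 and 127 in WT SP, with a difference from WT SP of -0.88 (SE 0.20, limma adjusted p = 0.0158). The 4 KO DP libraries lay close together and below all others, while WT SP spread over a wider range with WT SP replicate 1 highest. As deposited Rpl14 fell as well (-1.32, limma adjusted p = 0.0415).

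Rpl5 and Rpl11 form with 5S rRNA the particle that binds Mdm2 when ribosome assembly is disturbed. Rpl5 was 47.2, 61.5, 45.2 and 29.7 FPKM in KO DP, 108 and 103 FPKM in the KO SP pair, and 122, 82.0, 94.9 and 104 FPKM in WT SP. It separated KO DP from both SP groups without overlap, and KO SP lay within the WT SP range. Against the KO SP pair alone, 35.5% of all genes lay lower in this way as deposited. Rpl5 fell by 1.15 (SE 0.28, limma adjusted p = 0.0288) as deposited and by 0.71 (SE 0.18, adjusted p = 0.0234) after scaling. With the replicate block Rpl5 did not pass (adjusted p = 0.0732 as deposited and 0.0676 after scaling). Rpl11 overlapped between the groups after scaling, with 74.0 to 95.4 in KO DP and 83.1 to 216 in WT SP, and did not pass (-0.53, SE 0.28, limma adjusted p = 0.231).

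Rpl10a passed on both scales (limma adjusted p = 0.0342 as deposited and 0.028 after scaling) and Rpl13 after scaling only (-1.02, SE 0.24, limma adjusted p = 0.0176). Rpl4, Rpl8, Rpl19, Rpl23 and Rpl23a, which are outside the rule for named genes, also passed after scaling only. Rpl13a, a reference gene in many PCR assays, was 147, 173, 57.8 and 44.9 FPKM in KO DP and 243, 203, 98.3 and 96.7 FPKM in WT SP. Its groups overlapped, and the difference was -0.70 (SE 0.47, limma adjusted p = 0.333) as deposited and -0.26 (SE 0.33, adjusted p = 0.627) after scaling. Rpl22, a member known for its part in the development of alpha-beta T cells, was 3.02 to 16.2 FPKM in KO DP and 11.7 to 33.5 FPKM in WT SP and did not pass (-1.20, limma adjusted p = 0.121). Rpl10, a late-joining subunit, had a difference of -0.90 (limma adjusted p = 0.0844), Rpl21 of -0.82 (limma adjusted p = 0.128), Rpl32 of -1.33 (limma adjusted p = 0.121), and Rpl41, the shortest ribosomal protein, of -0.94 (limma adjusted p = 0.246), all as deposited.

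**Figure D2:**
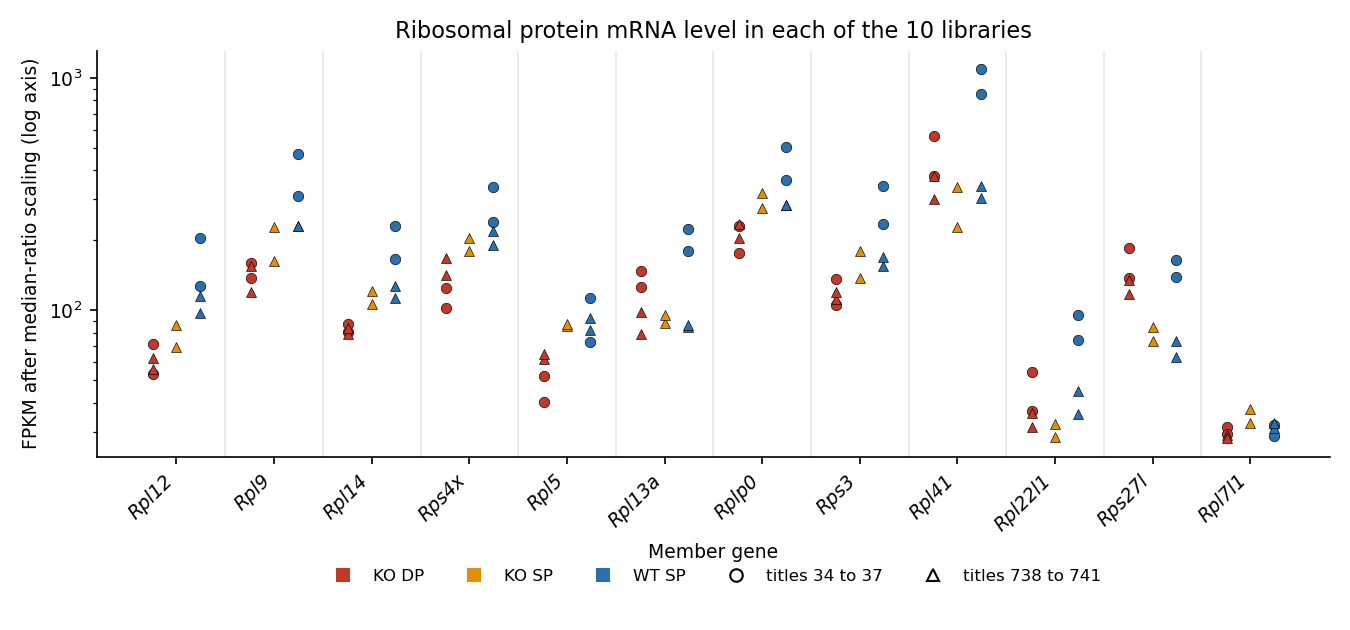
FPKM after median-ratio scaling (log axis) of 12 members in each of the 10 libraries; colours are the groups, circles titles 34 to 37 and triangles titles 738 to 741. For Rpl12, Rpl9 and Rpl14 all 4 KO DP libraries lie below the 4 WT SP libraries, while Rps27l and Rpl7l1 do not follow that order.

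Of the 30 tested small-subunit members, 5 fell as deposited and 6 after scaling (5.03% and 7.89% of all genes). The class medians were -1.18 and -0.76, beside -0.38 and -0.01 for all genes. Rps4x, the X-linked copy of the S4 subunit, was 119, 147, 123 and 64.9 FPKM in KO DP, 226 and 242 FPKM in the KO SP pair, and 367, 270.0, 221 and 245 FPKM in WT SP. No KO DP library reached any SP library. As an X-linked gene it is compared here between libraries that also differ in Xist. Rps4x fell by 1.31 (SE 0.31, 0.404-fold, limma adjusted p = 0.0268) as deposited and by 0.87 (SE 0.20, adjusted p = 0.0181) after scaling. Rps18, a protein of the small-subunit head, fell by 1.46 (SE 0.40, limma adjusted p = 0.0468) as deposited and by 1.02 (SE 0.27, adjusted p = 0.0288) after scaling, though the scaled fit with the block left it at an adjusted p of 0.053.

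Rps19, the subunit most often mutated in Diamond-Blackfan anaemia, was 244, 285, 116 and 82.4 FPKM in KO DP, 289.6 and 347 FPKM in the KO SP pair, and 672, 452, 332 and 322 FPKM in WT SP. It did not overlap with WT SP, and passed after scaling (-0.95, SE 0.25, limma adjusted p = 0.0286) but not as deposited (-1.40, SE 0.42, adjusted p = 0.0638). Rps3, which lines the mRNA entry channel, gave the same pattern, with 54.8 to 160 FPKM in KO DP and 179 to 369 FPKM in WT SP, and limma adjusted p of 0.0541 as deposited and 0.0329 after scaling. Rpsa, which also serves as a laminin receptor, passed as deposited (-1.22, SE 0.34, limma adjusted p = 0.049) and not after scaling (adjusted p = 0.0607).

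Rps6, the target of S6 kinase downstream of mTOR, did not pass on either scale. Its scaled values were 91.7, 110, 106 and 102 in KO DP, 156 and 157 in the KO SP pair, and 266, 153, 127 and 129 in WT SP. KO DP lay below every SP library. The difference from WT SP was -0.65 (SE 0.21, limma adjusted p = 0.0649). Rps14, the subunit lost in the 5q- syndrome, overlapped between KO DP (258 to 403, scaled) and WT SP (347 to 834) and did not pass (-0.67, limma adjusted p = 0.138).

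The stalk recruits translation factors to the ribosome, with Rplp0 as its base and Rplp1 and Rplp2 bound to it in pairs. Scaled Rplp0 was 177, 229.7, 234 and 205 in KO DP, 277 and 319 in the KO SP pair, and 504, 365, 284 and 284 in WT SP. KO DP lay below all SP libraries, and Rplp0 fell after scaling (-0.73, SE 0.19, limma adjusted p = 0.0287) but did not pass as deposited (-1.17, SE 0.35, adjusted p = 0.0626). Rplp1 and Rplp2 had differences of the same size, -0.89 (SE 0.36, limma adjusted p = 0.124) and -0.74 (SE 0.46, limma adjusted p = 0.309) after scaling, with wider spread. Scaled Rplp2 was 69.5 to 192 in KO DP and 95.0 to 403 in WT SP, so its groups overlapped.

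**Figure D3:**
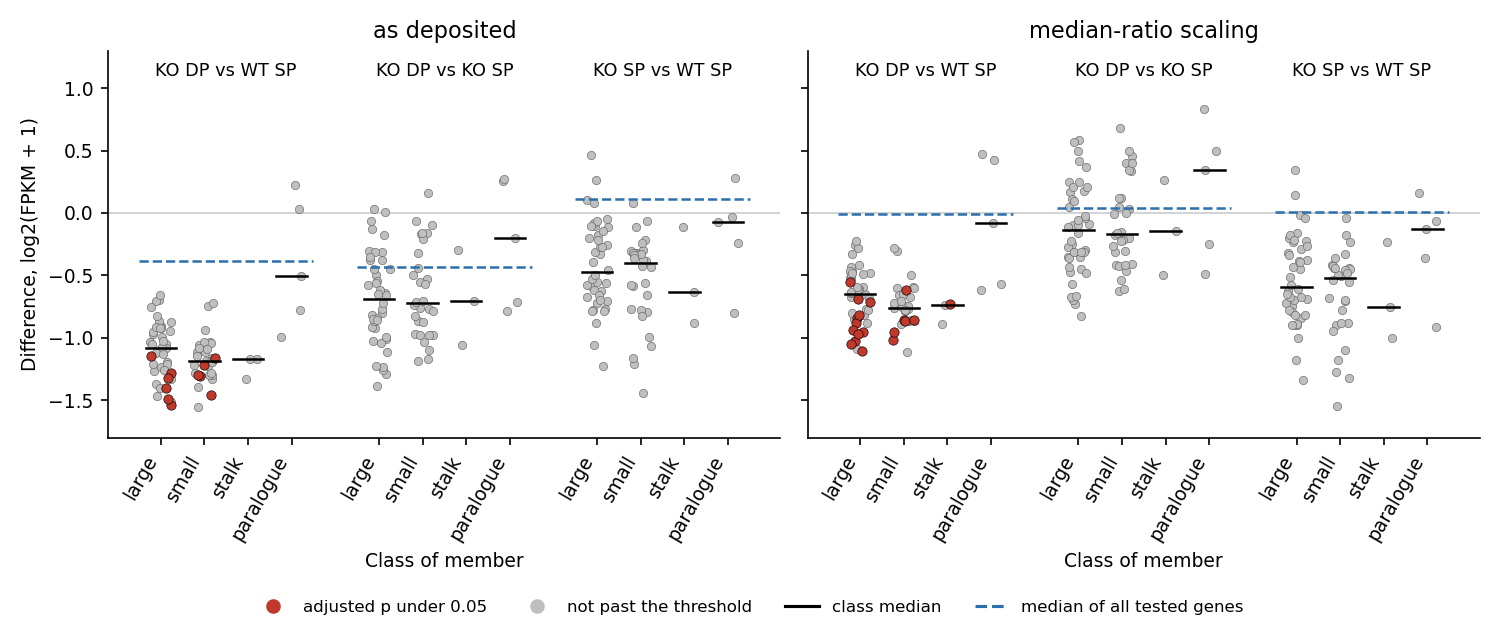
Difference in log2(FPKM + 1) of every tested member in the 3 comparisons, as deposited (left) and after median-ratio scaling (right), by class; red points passed limma at an adjusted p under 0.05, black bars are class medians and dashed lines the median of all tested genes. All red points lie in KO DP vs WT SP and below 0.

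No tested paralogue passed: the 5 had a median difference of -0.51 as deposited, with 2 lower at an unadjusted limma p under 0.05, and of -0.08 after scaling, with 0. Of the 11162 tested genes, 3050 differed in either direction at that threshold as deposited and 3542 after scaling. Rps27l, a copy of Rps27 known as a p53-inducible gene, was 161, 217, 85.6 and 61.5 FPKM in KO DP, 107 and 86.9 FPKM in the KO SP pair, and 149.8, 186, 73.1 and 82.6 FPKM in WT SP. Its groups overlapped and its difference from WT SP was 0.03 (SE 0.43, limma adjusted p = 0.963) as deposited and 0.47 (SE 0.30, adjusted p = 0.305) after scaling. Set against the median tested member of the same library, Rps27l stood at 1.53, 1.42, 1.28 and 1.53 times that median in KO DP, 0.977 and 0.657 in the KO SP pair, and 0.552, 0.951, 0.626 and 0.628 in WT SP. On this relative scale every KO DP library lay above every SP library.

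Fitted with each library scaled on its members, Rps27l was the 1 member that passed, with a difference of 1.15 (SE 0.26, 2.21-fold, limma adjusted p = 0.0097), where 18.1% of all genes were called higher. The median difference of all tested genes in that fit was 0.57, so the value for Rps27l is relative to the members. Over 40 fits the adjusted p of Rps27l ran from 0.0097 to 0.967, passing in 2. Rps27, its parent gene, was listed at 0 in 9 libraries, so reads of the parent and the copy may have been shared between them, and their part in this value was not tested.

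The other paralogues varied. Rpl7l1, a relative of Rpl7 with a role in ribosome assembly, hardly differed between libraries once scaled, with 28.2 to 31.4 in KO DP, 32.7 and 37.8 in KO SP and 28.9 to 32.9 in WT SP (-0.08, SE 0.09, limma adjusted p = 0.584 for KO DP vs WT SP). Rpl22l1, the paralogue of Rpl22, was 14.4 to 64.2 FPKM in KO DP and 41.5 to 103 FPKM in WT SP and did not pass (-0.997, SE 0.44, limma adjusted p = 0.17). Rpl39l was below 1 FPKM in all 10 libraries and Rps4y2 at most 2.33 FPKM, so their differences rest on low values. Rpl39l was, beside Rps27l, the only tested member with a positive difference on both scales (0.22 and 0.43).

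The KO DP to WT SP medians of the 2 title ranges were not alike, and which was larger turned with the scale, though not when set beside all genes. Within titles 34 to 37 the scaled median member difference was -1.08 and 0 members passed (0.197% of all genes called lower) with 2 residual degrees of freedom, though 70 of 80 were lower at an unadjusted limma p under 0.05. At that threshold 2014 of the 11162 tested genes differed in either direction. Within titles 738 to 741, where KO SP libraries also enter the fit, the scaled median was -0.36, and 10 members fell (11.8% of all genes) and 2 rose (15.8% of all genes). The share of members that fell, 10 of 80, was close to that of all genes. The members that rose were Rps27l (0.87, SE 0.14, limma adjusted p = 0.0109) and Rpl30 (0.76, SE 0.20, adjusted p = 0.0414), the latter named after its values were seen. As deposited the medians were -0.997 and -1.32, beside medians of 0.051 and -0.82 for all genes. After scaling the medians of all genes were -0.02 and 0. Relative to all genes, the members therefore lay further down in titles 34 to 37 on both scales. With the range as a covariate 70 members fell as deposited (13.3% of all genes) and 49 after scaling (13.8%), a fit that takes 1 difference for both ranges. The difference between the ranges did not pass for any of the 80 members (0 by limma on either scale), while 33 were more negative in titles 34 to 37 at an unadjusted p under 0.05 after scaling (13.4% of all genes differed in either direction) and 1 differed as deposited (42.9%). Erythroid and myeloid marker sums were also higher in titles 34 to 37, in KO DP and WT SP alike, and their part was not tested.

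Single members followed this. Rpl12 had a scaled difference of -1.37 (SE 0.31) within titles 34 to 37 and -0.83 (SE 0.16) within titles 738 to 741. Rpl13 had -1.23 (SE 0.30) and -0.82 (SE 0.14), and Rpl5 -0.97 (SE 0.28) and -0.45 (SE 0.11). Rpl13a had -0.56 (SE 0.17) and 0.04 (SE 0.14). Of these 4, Rpl13a alone did not keep its sign in both ranges.

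**Figure D4:**
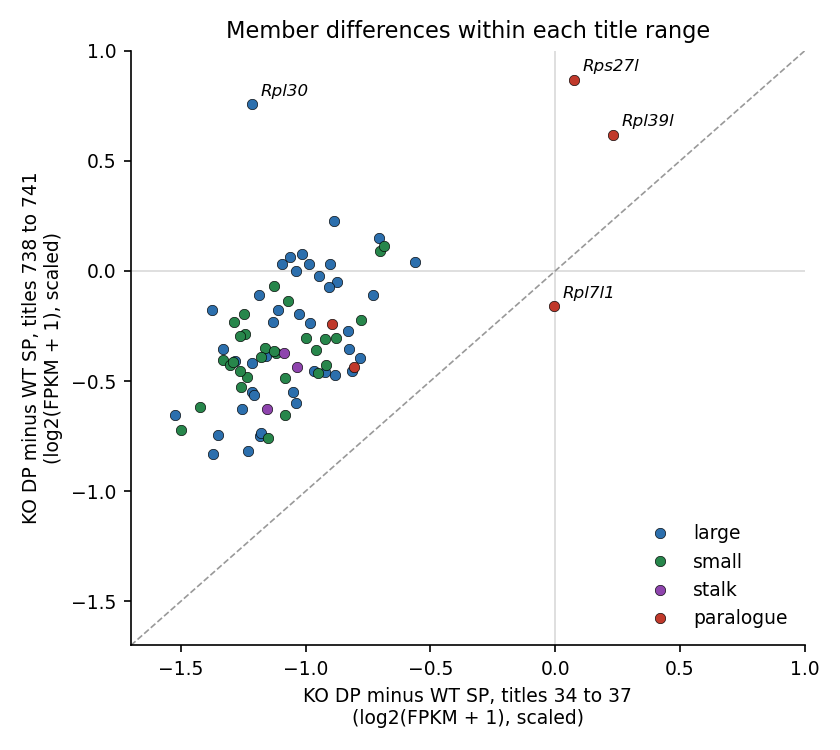
Scaled difference of KO DP from WT SP, in log2(FPKM + 1), for each tested member within titles 34 to 37 (horizontal axis) and within titles 738 to 741 (vertical axis), coloured by class; the dashed line marks equal differences. Most members lie above the line, with medians of -1.08 and -0.36, and Rps27l and Rpl39l are positive on both axes.

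The ranges also differed within a group, in libraries of the same genotype. In WT SP, scaled levels were higher in titles 34 to 37 by a median of 0.99 (log2), and both libraries of that range lay above both of the other for 76 of 80 members. In KO DP the median was 0.32, without overlap for 38. Neither these gaps nor these counts were computed over all genes, so they cannot be called particular to the members. The members with the largest WT SP gap, chosen after their values were seen, were Rps21 (2.06), Rps28 (1.92), Rpl39 (1.91), Rpl37a (1.89), Rps29 (1.83) and Rpl38 (1.77). At the other end lay Rpl5 (0.05), Rpl7l1 (-0.08), Rps4y2 (-0.10) and Rpl39l (-0.11). Levels of most members rose and sank together over the 10 libraries: the Pearson correlation of a member's scaled log2 level with the median of the other members had a median of 0.921, and was at least 0.9 for 45 members. It was under 0.5 for 6, namely Rpl39l (-0.48), Rpl7l1 (-0.13), Rps4y2 (0.14), Rps27l (0.31), Rpl30 (0.39) and Rpl5 (0.48). These points share their libraries, scaling and title ranges, and describe these 10 libraries only.

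KO DP and KO SP cells are both knockout and differ in CD4. As deposited the median member difference was -0.71, beside -0.43 for all genes, and after scaling -0.15 beside 0.04. No member passed limma on either scale: 0 as deposited, with 17 lower at an unadjusted p under 0.05, and 0 after scaling, with 6 lower and 1 higher. At that unadjusted threshold 2621 of the 11162 tested genes differed in either direction as deposited and 2685 after scaling. Over all genes 1.65% were called lower and 0.421% higher as deposited, and 2.88% and 2.62% after scaling. Within titles 738 to 741 and after scaling, 5 members fell (6.58% of all genes) and 1 rose (8.75%). Among those that fell were Rpl13 (-0.89, SE 0.14, limma adjusted p = 0.0164), Rps6 (-0.59, limma adjusted p = 0.0191), and Rpl3 and Rpl4, both outside the rule for named genes. Rps27l rose by 0.66 (SE 0.14, limma adjusted p = 0.0375). Both groups compared hold 2 libraries in that range, and its WT SP libraries also enter the fit, which leaves 3 residual degrees of freedom.

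KO SP against WT SP compares the knockout with the wild type in CD8 single-positive cells. The median member difference was -0.41 as deposited (all genes 0.11) and -0.53 after scaling (all genes 0.01), and 0 members passed limma, with 0 at an unadjusted p under 0.05 as deposited and 5 lower after scaling. At that unadjusted threshold 384 of the 11162 tested genes differed in either direction as deposited and 1457 after scaling. Over all genes 0.0717% were called higher and 0.0448% lower as deposited, and 0.143% and 0.0448% after scaling. Without single libraries the medians ran from -0.57 to -0.20 as deposited and from -0.70 to -0.31 after scaling. With the title range as a covariate they were 0.091 as deposited (all genes 0.30), with 53 of 80 members positive, and -0.26 after scaling (all genes -0.02). The sign as deposited thus turned with this covariate, but the member median still lay below that of all genes. Within titles 738 to 741 alone the medians were -0.0024 as deposited (all genes 0.077) and -0.10 after scaling (all genes 0). Xist and Ddx3y separate these groups too, and their part was not tested. The KO SP libraries all belong to that range, so the pooled difference sets them also against the WT SP libraries of the other range, where members are higher. Rpl12 had -0.63 (SE 0.44, limma adjusted p = 0.938) and Rpl5 0.08 (SE 0.34, limma adjusted p = 0.99) as deposited. The 3 comparisons share groups, so their values are not independent.

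Genes that act with the ribosomal proteins were taken from lists written beside the members. Of 72 tested genes of ribosome biogenesis and RNA polymerase I transcription, 14 fell in KO DP against WT SP as deposited and 28 after scaling (5.03% and 7.89% of all genes), with medians of -0.89 and -0.50. Nle1, an assembly factor of the large subunit, was 3.58, 3.81, 2.34 and 3.28 in KO DP, 4.24 and 8.68 in the KO SP pair, and 11.7, 9.18, 13.1 and 15.5 in WT SP after scaling. It lay lower in KO DP than in every SP library, with a difference from WT SP of -1.64 (SE 0.23, limma adjusted p = 0.00163). Nob1, the endonuclease that finishes 18S rRNA, fell by 0.75 (SE 0.12, limma adjusted p = 0.00384), and Nop14, a small-subunit assembly factor, by 0.75 (SE 0.14, limma adjusted p = 0.00735). Npm1, a nucleolar chaperone, fell on both scales (limma adjusted p = 0.0287 and 0.0492), Fbl, which methylates rRNA, did not pass (-0.52, limma adjusted p = 0.0515 after scaling), nor did Ncl (-0.22, limma adjusted p = 0.3). The summed share of the list was 0.453% ± 0.0230 in KO DP, 0.637% ± 0.0104 in KO SP and 0.602% ± 0.0911 in WT SP. Against KO SP, 2 of the 72 fell as deposited and 4 after scaling (1.65% and 2.88% of all genes).

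Of 39 translation factors, 1 fell as deposited and 4 after scaling, with a scaled median of -0.17; against the same 5.03% and 7.89% of all genes, these counts are near the background. Eef1b2, a subunit of the exchange factor for Eef1a1, was 23.2, 27.5, 33.9 and 30.7 in KO DP, 45.6 and 58.3 in the KO SP pair, and 68.5, 48.4, 54.3 and 53.0 in WT SP after scaling. The KO DP values lay below those of both SP groups, and Eef1b2 fell by 0.94 (SE 0.15, limma adjusted p = 0.00386). Eef1a1 (-0.87, limma adjusted p = 0.0171) and Pabpc1 (-1.06, limma adjusted p = 0.0316) fell after scaling, and Eef2 did not pass (-0.55, limma adjusted p = 0.0962). Of 24 other genes with TOP mRNAs, a list that overlaps the former, 4 fell as deposited and 7 after scaling (5.03% and 7.89% of all genes), with a scaled median of -0.38. Of 76 mitochondrial ribosomal proteins, 2 fell as deposited (5.03% of all genes), and 3 fell and 1 rose after scaling (7.89% and 9.7% of all genes), with a scaled median of -0.05. Their Mrpl30 fell by 0.77 (SE 0.13, limma adjusted p = 0.00486) and Mrps6 rose by 0.62 (SE 0.17, limma adjusted p = 0.0314) after scaling.

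Myc, which activates transcription of ribosome genes, was 28.1, 20.6, 8.71 and 7.69 FPKM in KO DP, 72.9 and 75.1 FPKM in the KO SP pair, and 100.1, 56.7, 114 and 105 FPKM in WT SP. KO DP lay below all SP libraries. Myc fell by 2.60 (SE 0.40, limma adjusted p = 0.00293) as deposited and by 2.19 (SE 0.25, adjusted p = 0.000561) after scaling, and against KO SP by 1.77 (SE 0.30, adjusted p = 0.0123) after scaling. Mtor (-0.36, limma adjusted p = 0.607), Larp1 (-0.62, limma adjusted p = 0.199) and Eif4ebp1 (-0.11, limma adjusted p = 0.715) did not pass after scaling. Protein levels, phosphorylation and translation were not measured.

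**Figure D5:**
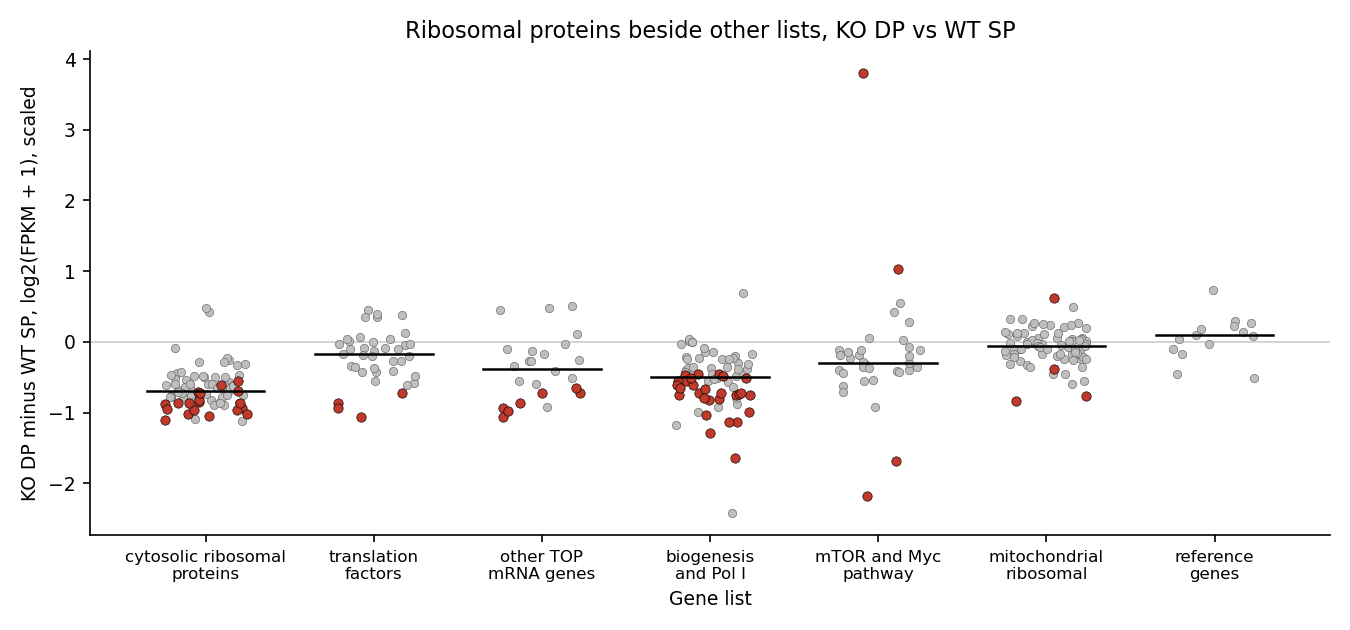
Scaled difference of KO DP from WT SP, in log2(FPKM + 1), of each tested gene of 7 lists; red points passed limma at an adjusted p under 0.05 and bars are list medians. The medians are -0.70 for cytosolic ribosomal proteins, -0.50 for biogenesis and Pol I and -0.05 for mitochondrial ribosomal proteins; some genes stand in more than 1 list.

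H3K9me3 peaks lay near few member starts. Within 5 kb of a start, as the authors' annotation of each peak gives it, 7 of 84 members (8.33%) had a peak in WT list 1 and 1 (1.19%) in WT list 2, against 16.3% and 7.29% of the 23234 genes. In the knockout lists the counts were 6 (7.14%) and 4 (4.76%), against 12.8% and 15.9%. In each list the share of members was below that of all genes. The lists differ in length, from 23304 to 154997 peaks, so counts of different lists show no change between genotypes. Rpl3 was the 1 member with a peak in all 4 lists, at -3267 to -3532 bases from its start, and it averaged 219 FPKM in the RNA libraries. The untested paralogue Rpl10l had peaks at -5 bases in WT list 1 (chr12:67384827-67385960, mm9) and at -498 bases in KO list 2 (chr12:67385636-67386136, mm9). Of the members that fell, Rpl10a had a peak at -3797 and -3858 bases in WT list 1 and KO list 1, annotated as intronic, and Rpl23, which fell after scaling and is outside the rule for named genes, had an intergenic peak at -2037 and -1631 bases in the same lists. RNA and H3K9me3 come from cells grown under different conditions.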

How the data were processed

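RNA was taken from 10 libraries in 3 groups (up to 5 ng of total RNA, SMART-Seq v4 and Nextera, per the labels' protocols). FPKM per gene were deposited by the authors; the submitters' processing notes name TopHat, Cufflinks and mm9, with versions not given in the sources used here. H3K9me3 peaks and their peak score were made by the authors with Bowtie and HOMER on mm9, 1 list per library, per the submitters' processing notes and the file headers; scores only ranked peaks within a list, and input libraries were not used here. Counting strand is not given in the sources used here, so overlapping and antisense genes cannot be told apart.

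Of 23700 lines, the 466 repeating a symbol were added up. The 11162 genes averaging 0.5 FPKM or more were tested on log2(FPKM + 1) with limma 3.58.1 (trend; 7 residual degrees of freedom from 3 groups fitted jointly), adjusted by Benjamini-Hochberg at 0.05, as deposited and after median-ratio scaling; the procedure was tested on simulated data. Fold changes on this scale understate low genes. Members and lists were chosen with earlier results of these data known. Named genes were preset roles and paralogues, up to 5 called members per direction and scale by smallest p, the 5 highest and 5 lowest by mean, and up to 3 genes per list besides preset ones. KO DP and WT SP share replicate numbers in the labels, and deviations of same-numbered libraries correlated at 0.119, 0.293, 0.111 and 0.103 over genes. They were therefore treated as paired in an alternative fit (numbers shared by KO SP and WT SP are treated in the closing section). However, KO DP replicate 3 correlated more with WT SP replicate 4 (0.201), and KO DP replicate 4 more with WT SP replicate 3 (0.243). Only for KO DP replicates 1 and 2 was the same-numbered WT SP library the one that correlated most, so the pairing by number is uncertain. Every KO DP and WT SP pair within a title range correlated positively, and every pair across the ranges negatively. Same-numbered libraries always share a range, so these correlations cannot tell pairing by number from a shared range. Other alternatives varied the scaling, filter, pseudocount, trend, groups, title range and libraries; the last of these included choices made after seeing the data. Some members that the rule would name are not reported here by name, and stay in the counts and medians.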

Additional observations from a re-analysis of the deposited data

How the results depend on the processing

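The median KO DP to WT SP difference of the members was negative in every fit run, but the count of members called was not stable; the share of all genes called lower follows each count in parentheses. The count was 11 as deposited (5.03%), 19 after median-ratio scaling (7.89%), 19 with a common total (6.06%), 1 with the 2 groups alone (2.93%), 3 with no filter (1.38%), 70 and 49 with the title range as covariate (13.3% as deposited and 13.8% scaled), 0 and 0 within titles 34 to 37 (0.206% and 0.197%), 70 within titles 738 to 741 as deposited (47.1%), and 2 and 2 with KO DP replicates 1 and 2 only (2.53% and 3.22%). Without single libraries it was 0 to 22 as deposited (1.53% to 8.17%) and 6 to 23 after scaling (4.4% to 10.6%). Scaling on the members left 1, called higher, where 18.1% of all genes were. The median was -0.035 with scaling on the members, -0.36 within titles 738 to 741 after scaling, and -1.43 to -0.42 without single libraries. For KO DP vs KO SP, 23 and 1 members passed with the range covariate (3.39% and 2.46%), and 70 and 6 within titles 738 to 741 (50.4% and 6.58%, 1 of the 6 being higher). Without single KO DP or WT SP libraries 0 to 3 passed (0.573% to 2.66% as deposited, 0.914% to 5.81% after scaling). The median was -0.014 and 0.039 with KO DP replicates 1 and 2 only, which sets titles 34 to 37 against titles 738 to 741. It was -0.026 with scaling on the members and -0.95 to -0.0063 without single libraries. The cause of these shifts was not tested. A replicate block gave 26 members for KO DP vs WT SP as deposited (6.79%) and 13 after scaling (8.56%). For KO DP vs KO SP, whose pairs share a title number (r 0.143 and 0.0908) and leave 1 residual degree of freedom, it gave 49 as deposited (36.1%) and 0 after scaling (0.0896%, 24 members lower at an unadjusted p under 0.05, where 3431 of the 11162 tested genes differed in either direction). For KO SP vs WT SP, which share replicate numbers 1 and 2 but not a title range (r -0.0339 and -0.11), the block, chosen after seeing the data, gave 0 members by limma on both scales, with 40 and 42 lower at an unadjusted p under 0.05 and medians of -0.86 and -0.999, also with 1 residual degree of freedom. In the same fits 2330 and 2091 of the 11162 tested genes differed in either direction at that threshold. The share ratio of KO DP to WT SP ran from 0.537 to 0.722 without single libraries. Within 1 kb of starts, 3 members had an H3K9me3 peak in WT list 1 (5.20% of all genes), 0 in WT list 2 (1.64%), 1 in KO list 1 (2.41%) and 1 in KO list 2 (3.36%). Within 5 kb and with the upper part of the scores, the counts were 6 (11.7%), 0 (4.70%), 3 (8.93%) and 4 (10.6%) in the same order. Depth is unknown, which limits statements on low genes.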

Other observations

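Beyond the ribosomal protein genes, a few regulators on the mTOR and Myc list changed in KO DP against WT SP after scaling, 2 in each direction among 34 tested, where 7.89% of all genes fell and 9.7% rose, so neither count exceeds the background. Myc and Sesn1, a p53 target that restrains mTOR, fell, the latter with a difference of -1.68 (SE 0.28, limma adjusted p = 0.00425). Mxd4, which competes with Myc for its partner Max, rose by 1.04 (SE 0.23, limma adjusted p = 0.0157), and Mxd3, of the same family, by 3.81 (SE 1.02, limma adjusted p = 0.0301), though it was listed at 0 in KO DP replicate 1 and in every SP library. Of the host genes for small nucleolar RNAs, Snhg1 fell on both scales (-0.97 after scaling, limma adjusted p = 0.0332) and Gas5 fell as deposited only (-1.34, SE 0.30, limma adjusted p = 0.0216).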
